A study of Mus musculus with 16 samples.

Results

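The T and natural killer (NK) cells that infiltrate 2208L mammary tumors are described here from single-cell RNA sequencing of 4 tumor libraries. Cells were chosen by their own transcripts. A cell was kept when it had more than 200 and fewer than 6000 detected genes and at most 10% mitochondrial UMIs (unique molecular identifiers, each standing for 1 captured transcript). It was taken as a T or NK cell when its UMIs of Cd3e, Cd3g, Trbc2, Ncr1 and Klrb1c summed to at least 3, its UMIs of the macrophage genes C1qa, C1qb and C1qc to under 20, and its UMIs of the B cell genes Cd79a and Cd79b to at most 1. This gave 391 of 13830 kept cells.

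2208L is a transplantable Trp53-null mouse model of triple-negative breast cancer, rich in neutrophils and grown in the mammary fat pad of immunocompetent BALB/c mice. The mice received vehicle, IACS-70654 (an oral inhibitor of the bromodomains of the acetyltransferases CBP and P300, given 3 days on and 2 days off), an antibody against the checkpoint receptor PD-1, or IACS-70654 with anti-PD-1, called the combination below. Tumors were dissociated after 7 days, viable cells were sorted without selection for immune cells, and the cells of 3 mice per treatment were pooled, tagged with a CellPlex oligonucleotide and sequenced from the 3′ end. Each treatment is therefore 1 library with no replicate, and no test between treatments was possible.

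T cells recognize peptides on MHC molecules through a receptor assembled with the CD3 chains, whereas NK cells lack this receptor and carry activating receptors such as NKp46, the product of Ncr1. Naive and memory T cells are maintained by transcription factors such as TCF1 (Tcf7), LEF1, SATB1 and BACH2, recirculate through lymph nodes with CCR7 and S1PR1, and lower these genes when they become effector or tissue-resident cells. Regulatory T cells, marked by Foxp3, restrain other T cells, and gamma-delta T cells can release IL-17A, a cytokine that acts on neutrophil production. CBP and P300 acetylate histone H3 at lysine 27 on active enhancers.

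T and NK cells made up 74 of 1974 cells, or 3.75% (95% interval 2.95% to 4.68%), of the vehicle library, 83 of 4739 cells, or 1.75% (95% interval 1.40% to 2.17%), of the IACS-70654 library, 110 of 2053 cells, or 5.36% (95% interval 4.42% to 6.42%), of the anti-PD-1 library and 124 of 5064 cells, or 2.45% (95% interval 2.04% to 2.91%), of the combination library. Both libraries with IACS-70654 had the lower shares. All intervals are exact and cover counting error only, so differences between mice or between tumors are not in them. The rest of each library moved too: macrophage-rule cells, with at least 20 UMIs of the C1q genes, were 37.3%, 64.4%, 27.0% and 56.2% of kept cells in the vehicle, IACS-70654, anti-PD-1 and combination libraries, and neutrophil-rule cells 20.5%, 4.20%, 23.9% and 4.19%. A share of sorted cells does not give a number of T cells per tumor. With neutrophil-rule and tumor-cell-rule cells taken out of the denominator, the T and NK shares were 5.83%, 1.87%, 9.05% and 2.98% in the same order, which is the order of libraries used for every set of 4 values below.

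The rule itself has a part in these shares. Cells that had at least 3 lymphocyte UMIs but were turned away by the C1q limit numbered 17, 62, 8 and 34, most of them in the libraries rich in macrophages. Without that limit the shares were 4.61%, 2.98%, 5.75% and 3.12%. Just inside the lymphocyte threshold, 10, 13, 12 and 13 cells had exactly 3 UMIs, and just outside it 10, 20, 11 and 11 cells had exactly 2. The members held 278279, 432353, 515712 and 580149 UMIs, with a median of 2074.5, 2919, 2442.5 and 2700.5 UMIs per cell against 6201.5 to 6744 per macrophage-rule cell. No cell barcode was shared between the libraries.

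**Figure D1:**
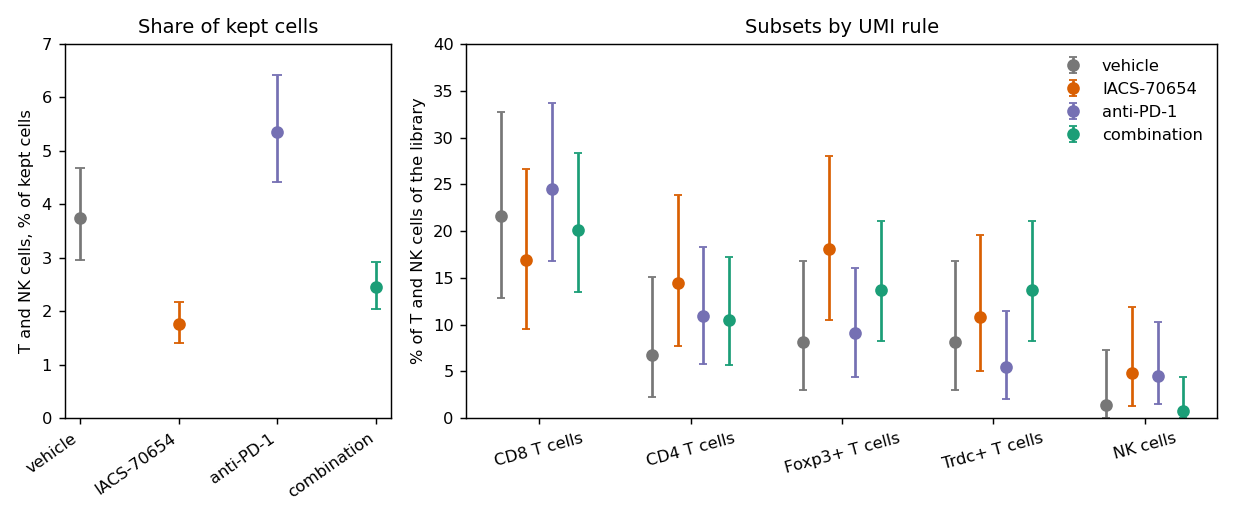
Left, T and NK cells as a percentage of kept cells in each of the 4 libraries. Right, subsets by their UMI rules as a percentage of the T and NK cells of the library. Points are 1 library each and bars are exact 95% binomial intervals. The anti-PD-1 library has the largest share of T and NK cells (5.36%) and the IACS-70654 library the smallest (1.75%), while the intervals of each subset overlap between libraries.

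Most members were T cells, a share that the selection in part sets, since the rule itself counts UMIs of Cd3e, Cd3g and Trbc2. By at least 1 UMI of Cd3e or Cd3g, 367 of the 391 cells, or 93.9%, were T cells, and Ncr1 was detected in 14 cells and Klrb1c in 3. Only 11 cells had Ncr1 and no Cd3e or Cd3g, so values below describe T cells and say little about NK cells. T cell markers that the rule did not use were present throughout: Cd3d had 105, 122, 168 and 159 UMIs, Trac (the constant region of the alpha chain) 99, 110, 163 and 148, and Cd247 (the CD3 zeta chain) 42, 48, 64 and 89. Genes with a much higher level than in the remaining kept cells included Foxp3 (228-fold higher level), Tnfrsf4 (197-fold), Trdc (187-fold), Trac (132-fold), Nkg7 (132-fold), Icos (129.9-fold) and Il17a (129-fold). Of the NK markers, Klre1 had 4, 2, 11 and 2 UMIs, whereas Klrc1 had 63 over all members, in 42 cells (84.7-fold higher level). The list of 18 NK cell receptors and factors had 259, 555, 772 and 548 UMIs. Its level was 27.9%, 40.8%, 56.5% and 35.7% of that in the remaining kept cells.

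The coreceptors were sparsely captured, and 241 of 391 cells, or 61.6%, were T cells with neither Cd4 nor Cd8a or Cd8b1. CD8 T cells, defined by Cd8a or Cd8b1 without Cd4, numbered 16, 14, 27 and 25, or 21.6%, 16.9%, 24.5% and 20.2% of members. CD4 T cells numbered 5, 12, 12 and 13, or 6.76%, 14.5%, 10.9% and 10.5%. Foxp3+ T cells numbered 6, 15, 10 and 17 (8.11%, 18.1%, 9.09% and 13.7%), and T cells with Trdc, the constant region of the delta chain, 6, 9, 6 and 17 (8.11%, 10.8%, 5.45% and 13.7%). The intervals of each subset overlapped between libraries, as the plot of shares shows. At 1000 UMIs per cell, to which each cell was thinned at random to equalize depth, Foxp3 was seen in 1.45%, 5%, 2.78% and 6.56% of cells and Trdc in 1.45%, 6.25%, 3.70% and 7.38%, near the level of single UMIs.

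Transcripts of other cell types were present in these cells and differed between libraries. Levels below are CPM, the UMIs of a gene or list as a part of all UMIs of the library's members, scaled to a fixed total. Summed CPM were 2278, 4961, 2540.2 and 3616 for the 14 macrophage and monocyte markers, 3044, 8289.5, 5486 and 7515 for the 12 tumor epithelial markers and 729, 893, 1681 and 998 for the 10 neutrophil markers. Among the remaining kept cells the macrophage markers stood at 29891, 47052, 18879.7 and 39670.2 CPM and the tumor epithelial markers at 7384, 5656, 8734 and 7864 CPM. The 11 stromal, endothelial and red cell markers stood at 3033, 30.1, 2631 and 62.1 CPM. The 9 B cell and plasma cell markers, of which the selection limits Cd79a and Cd79b, had 61, 38, 48 and 9 UMIs, or 219, 87.9, 93.1 and 15.5 CPM. Most of these came from Ebf1 (43, 0, 4 and 3 UMIs) in the vehicle library and from Ighm (16, 26, 30 and 5 UMIs) in the others. Ms4a1 and the neutrophil gene Retnlg were at 0 in the members. In the IACS-70654 library 12 of 83 members met the tumor cell rule, against 4 of 74 with vehicle, 8 of 110 with anti-PD-1 and 13 of 124 with the combination. These levels differed between the libraries, and not all in the same order. Their part in each result below was not tested except where a value without the cells concerned is given.

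Several naive and memory genes, among them Lef1, Satb1, Bach2 and Tcf7, were lower in both libraries with IACS-70654. Lef1, a partner of TCF1 in naive T cells (chr3:131110471-131224356 in GRCm38), stood at 435, 41.6, 297 and 60.3 CPM, so that both libraries with IACS-70654 lay below both without it. The log2 ratio of IACS-70654 over vehicle was -3.38 (95% interval -4.19 to -2.66), and that of the combination over anti-PD-1, which uses none of the same libraries, was -2.30 (95% interval -2.87 to -1.76). It was detected in 30, 14, 52 and 25 cells, and no cell gave more than 16.7% of a library's UMIs.

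Satb1, a chromatin organizer of thymocytes and naive T cells (chr17:51736187-51833290), stood at 614, 113, 389.8 and 119 CPM, with log2 ratios of -2.44 (95% interval -2.93 to -1.97) and -1.71 (95% interval -2.13 to -1.31) in the same 2 comparisons. Bach2, a repressor of effector differentiation (chr4:32238804-32586108), stood at 679, 132, 351 and 179 CPM, with ratios of -2.37 (95% interval -2.82 to -1.93) and -0.97 (95% interval -1.33 to -0.61). Tcf7 (chr11:52252371-52283014), which encodes TCF1, stood at 194, 50.9, 116 and 56.9 CPM, with ratios of -1.93 (95% interval -2.72 to -1.19) and -1.03 (95% interval -1.69 to -0.40). For each of these genes both libraries with IACS-70654 were below both without it. The vehicle library was above the anti-PD-1 library in all of them.

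Ccr7, which guides naive T cells into lymph nodes, stood at 183, 34.7, 145 and 62.1 CPM, with ratios of -2.40 (95% interval -3.34 to -1.55) and -1.23 (95% interval -1.84 to -0.64), above 1 in size in both comparisons. S1pr1, the receptor for exit into lymph, stood at 93.4, 55.5, 120.2 and 32.8 CPM, with ratios of -0.75 (95% interval -1.61 to 0.11) and -1.88 (95% interval -2.70 to -1.12), above 1 in size in the second alone. Foxp1, a keeper of quiescence, stood at 593, 259, 378 and 243 CPM and Klf2, which drives S1pr1, at 927, 474, 764 and 607 CPM. Il7r, the receptor chain for the survival cytokine IL-7, had 56, 75, 119 and 144 UMIs, with ratios of -0.21 (95% interval -0.73 to 0.31) and 0.11 (95% interval -0.26 to 0.47). Bcl2, a survival factor that IL-7 induces, stood at 287, 192, 217 and 203 CPM. Both intervals for Il7r included 0.

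Across the list of 14 naive and memory genes, all had at least 20 UMIs in both pairs of libraries. In IACS-70654 over vehicle, 9 of 14 were lower by a log2 ratio of 1 or more (called past the fold) and 0 higher, with a median of -1.15. Of all 5351 genes with 20 UMIs in this comparison, 6.88% were lower past the fold and 8.84% higher, with a median of 0.065. In combination over anti-PD-1, 7 of 14 were lower and 0 higher, with a median of -1.0, against 5.34% lower and 4.96% higher of all 6892 genes and a median of 0.042. Under 12 other settings, 1 of which left out cells with neutrophil, tumor or collagen genes and limited C1q to under 5 UMIs, the list's median ran from -1.33 to -1.0 in the first comparison and from -1.13 to -0.83 in the second. The summed level of the same list had log2 ratios of -1.44 and -0.79 in T and NK cells, and of -0.38 and -0.28 in the remaining kept cells.

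**Figure D2:**
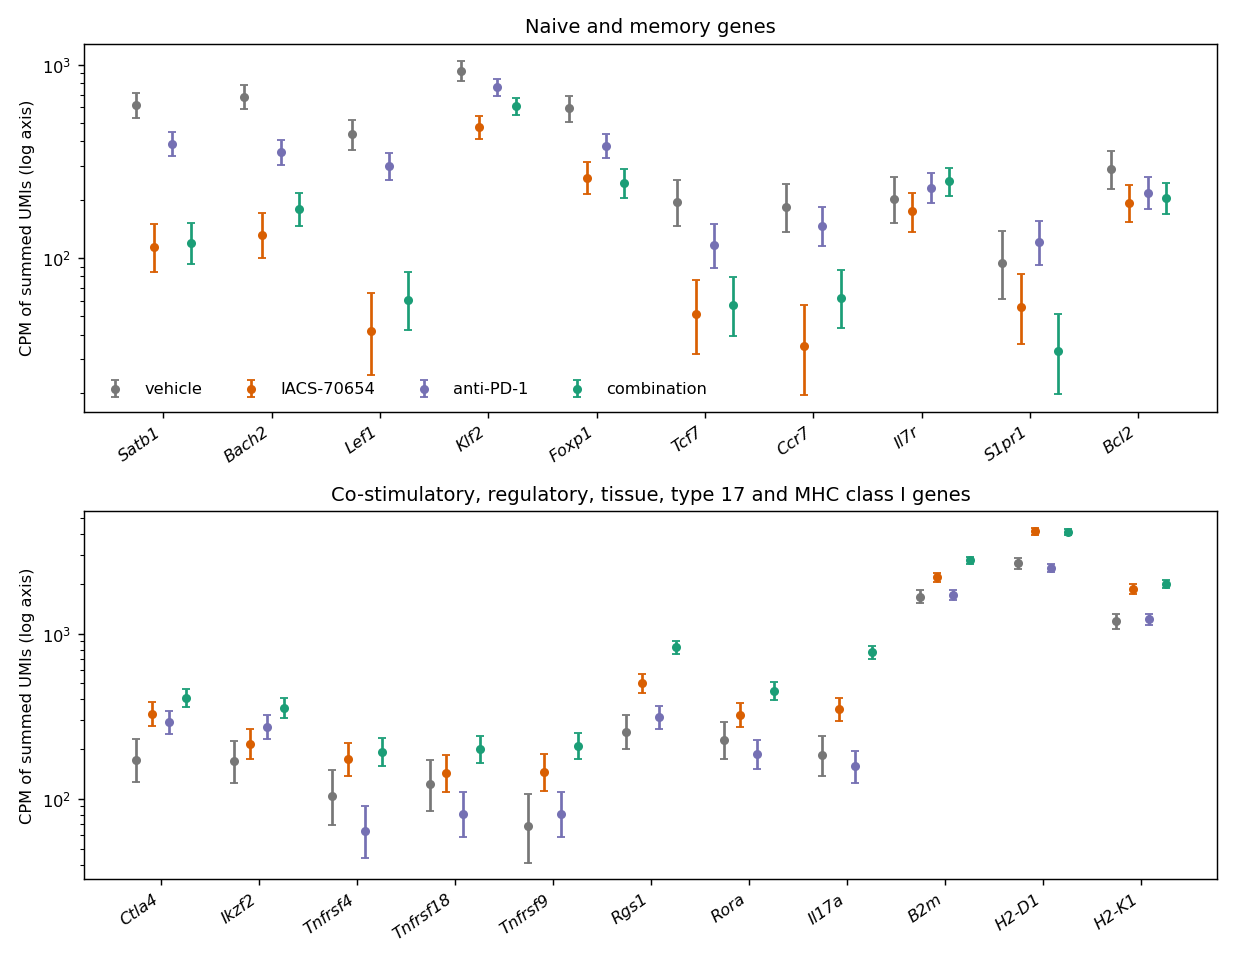
Levels of naive and memory genes (top) and of co-stimulatory, regulatory, tissue, type 17 and MHC class I genes (bottom) in T and NK cells, in CPM of the UMIs summed over the cells of a library, on a log axis. Points are 1 library each and bars are exact 95% Poisson intervals. Satb1, Bach2, Lef1 and Tcf7 lie lower in both libraries with IACS-70654 (41.6 CPM and 60.3 CPM for Lef1) than in both without it (435 CPM and 297 CPM).

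The lower levels were seen in cells as well as in sums. After thinning to 1000 UMIs, which left 69, 80, 108 and 122 cells, Satb1 was detected in 46.4%, 10%, 35.2% and 13.9% of cells, Bach2 in 47.8%, 12.5%, 35.2% and 14.8%, Lef1 in 29.0%, 8.75%, 27.8% and 11.5% and Tcf7 in 23.2%, 7.5%, 13.0% and 7.38%. Macrophage-rule cells at the same depth, drawn as the cells that should lack these genes, had a UMI in 0.2% to 0.8% for Satb1, 0% to 0.4% for Lef1 and 0% to 0.2% for Tcf7. For Bach2 they had one in 9.6% to 11.4%, so the shares of the libraries with IACS-70654 were close to that level. Unthinned, Lef1 was detected in 40.5%, 16.9%, 47.3% and 20.2% and Satb1 in 58.1%, 26.5%, 52.7% and 30.6% of members.

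**Figure D3:**
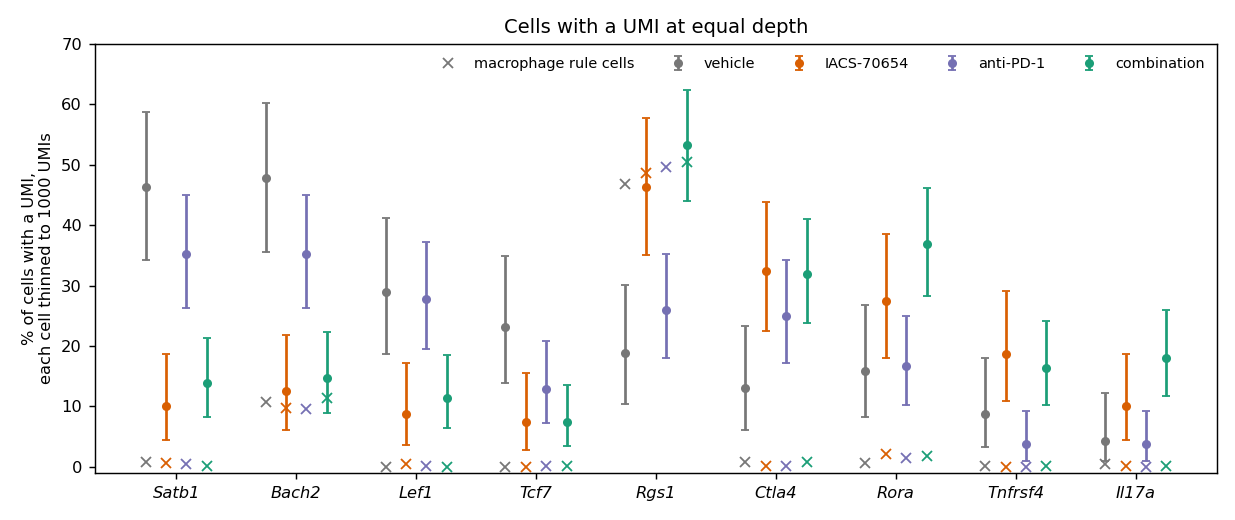
Percentage of T and NK cells with at least 1 UMI of each gene after every cell was thinned to 1000 UMIs (points, with exact 95% binomial intervals), and of up to 500 macrophage-rule cells per library at the same depth (crosses). Satb1 is detected in 46.4% and 35.2% of cells without IACS-70654 and in 10% and 13.9% with it, while Rgs1 is at 46.8% to 50.4% in macrophage-rule cells.

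The same order was seen within coreceptor subsets. Within CD8 T cells the summed naive and memory level was 5547, 1568, 3061 and 1804 CPM, within CD4 T cells 9149.6, 2181, 3648 and 2644 CPM and within T cells with neither coreceptor 3784, 1863, 3489 and 1883 CPM. In each of these subsets both libraries with IACS-70654 were below both without it. Foxp3+ T cells had 1565, 1003, 2640.4 and 1499 CPM, again lower in both libraries with IACS-70654, where the combination and vehicle levels were close. Lef1 was 329.8, 59.3, 258 and 72.5 CPM in T cells with neither coreceptor. The CD4 values with vehicle rest on 5 cells.

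Beyond the fixed lists, genes with a log2 ratio of 1 or more in size and the same sign in both IACS-70654 comparisons were ranked by the smaller ratio, among 3571 genes with at least 40 UMIs over the 4 libraries and a level in T and NK cells at least that of other kept cells. Of these, 106 (2.97%) were lower and 26 (0.728%) higher in both, against 128 lower (2.07%) and 76 higher (1.23%) of all 6184 genes with 40 UMIs. This ranking asks for no minimum in each pair of libraries, and 72 of the 106 and 21 of the 26 had 20 UMIs in both comparisons. Of all 5269 genes with 20 UMIs in both comparisons, 85 (1.61%) were lower in both and 64 (1.21%) higher in both, while 0.209% and 0.152% had opposite signs. Across 1154 genes with at least 100 UMIs the ratios of both comparisons had a Pearson r of 0.69, a description over genes of these 4 libraries. These genes include fibroblast genes with large ratios from few cells, such as Col1a1 at -7.74 and -8.28. The r without those cells was not computed.

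The first 10 lower genes were Col1a1, Col1a2, Dcn, Mgp, Col3a1, Sparc, Fbln2, Sfrp2, Fbn1 and Mfap5, all products of fibroblasts. They came from few cells: of 2165 UMIs of Col1a1, Col1a2, Col3a1 and Dcn in all members, 2151 lay in 6 cells, of which 3 were in the vehicle library, 2 in the anti-PD-1 library and 1 in the combination library. With these 6 cells left out, a setting chosen after the data were seen, 61 of 3452 genes were lower in both comparisons, 42 of them among the 106. The values in the next sentences leave out the same 6 cells. Dapl1, a gene of naive and memory CD8 T cells, ranked first, with 20, 1, 25 and 0 UMIs. Lef1 was next, followed by Gpr18, a receptor of lymphocytes, at 87.0, 13.9, 53.8 and 10.5 CPM, Cmah, an enzyme of sialic acid synthesis, at 91.3, 13.9, 72.4 and 15.7 CPM, and Txk, a TEC-family kinase, at 157, 34.7, 179.9 and 34.9 CPM. Sidt1 (139, 30.1, 130.3 and 29.7 CPM), Aff3 (56, 26, 85 and 8 UMIs) and Satb1 were also among the first 12, as were Fgg, the gamma chain of fibrinogen (24, 5, 11 and 0 UMIs in 7 cells), Scd1, a fatty acid desaturase (57, 17, 69 and 19 UMIs in 30 cells), Gm2682 and Gm26917.

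**Figure D4:**
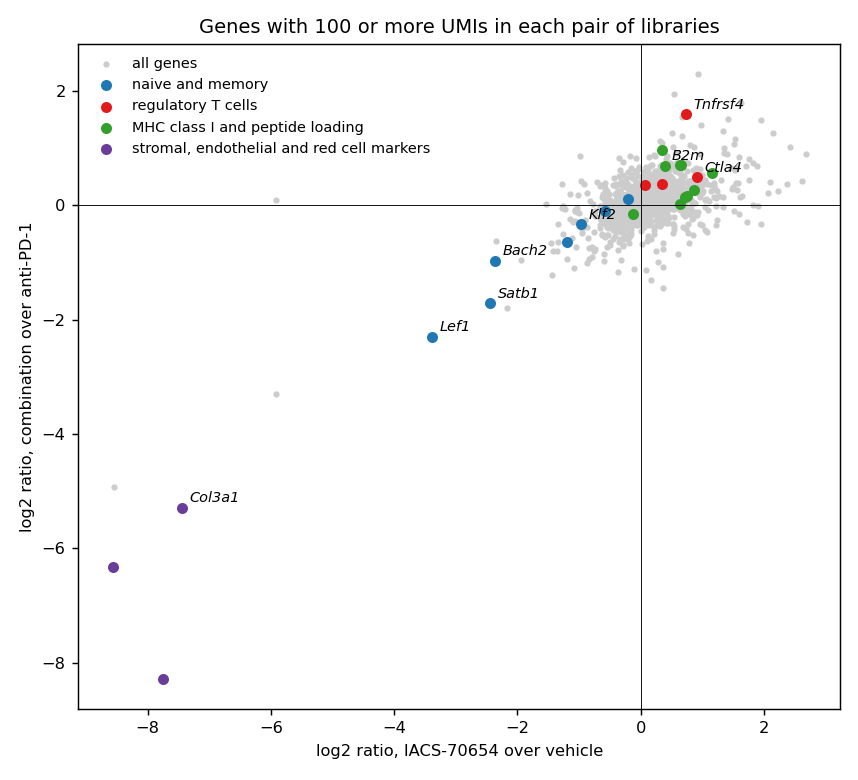
Log2 ratio of IACS-70654 over vehicle (horizontal) against that of the combination over anti-PD-1 (vertical) for the 1154 genes with at least 100 UMIs in each pair of libraries, 1 point per gene, with 4 gene lists in color. Most naive and memory genes lie in the lower left (Lef1 at -3.38 and -2.30), while Il7r lies near 0 in both, regulatory T cell and MHC class I genes mostly in the upper right, and collagen genes, from 6 cells, at the far lower left.

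The first 10 higher genes were AA467197, Apol9a, Penk, C430049B03Rik, Acot1, Itgb8, Krtcap3, 1110008P14Rik, Irgm1 and Pfn2. AA467197 took 96.4% of its UMIs in the IACS-70654 library from 1 cell and 87.7% in the combination library from 1 cell, and 1110008P14Rik took 66.8% in the combination library from 1 cell. Penk, which encodes the opioid precursor proenkephalin, had 2, 19, 0 and 38 UMIs, and 5 cells held it in each library with IACS-70654. Itgb8, the integrin chain that activates TGF-beta, had 2, 11, 8 and 43 UMIs, and Irgm1, an interferon-induced GTPase, had 5, 23, 8 and 30. Of the first 10, 1110008P14Rik had 32, 153, 105 and 410 UMIs in 120 cells, and the others were held by 10 to 43 cells. With C1q under 5 UMIs and cells with neutrophil, tumor or collagen genes left out, a setting chosen after the data were seen, 28 of 2565 genes were higher in both, 5 of them among the 26, and 44 were lower in both, 28 of them among the 106. The first 10 higher genes were then Penk, Itgb8, Il17a, Tent5a, Sh3rf1, Mthfsl, Mxi1, Rgs2, Tnfrsf9 and Rgs1.

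Genes of T cell receptor signalling had medians below 0, with a count of lower members near that of all genes. The list of 16 had a median log2 ratio of -0.48 over 15 members in IACS-70654 over vehicle and -0.35 over 16 in combination over anti-PD-1, with 1 member lower past the fold in each, against 6.88% and 5.34% of all genes. Lat, the adaptor that the receptor's kinases phosphorylate, had ratios of -0.88 (95% interval -1.46 to -0.31) and -1.02 (95% interval -1.50 to -0.55), and Cd28, the co-stimulatory receptor, -0.75 (95% interval -1.28 to -0.22) and -0.77 (95% interval -1.18 to -0.37). Trbc2, at 869.6, 486, 898 and 465 CPM, was lower in both libraries with IACS-70654 but is a gene of the selection rule and is given as a description. The rule asks for a fixed count of lymphocyte UMIs, while members had a median of 2074.5, 2919, 2442.5 and 2700.5 UMIs. A deeper cell can thus enter with a lower level of T cell genes. The part of this in the list's ratios was not tested. The list's median in the first comparison was -0.011 when cells meeting the neutrophil or tumor cell rule were left out.

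Cytotoxic genes were few in UMIs and uneven between cells. For the combination over anti-PD-1, 4 of 10 members of the list were lower past the fold and 1 higher, with a median of -0.88, where 5.34% of all genes were lower and 4.96% higher. In IACS-70654 over vehicle 2 of 4 were lower (Gzmb and Ctsw), against 6.88% of all genes, with a median of -0.95. The Gzmb ratio went from -1.48 to 0.20 among cells with at least 5 lymphocyte UMIs. Nkg7, a granule protein of cytotoxic lymphocytes, stood at 277, 159.6, 384 and 205 CPM, with ratios of -0.79 (95% interval -1.28 to -0.31) and -0.90 (95% interval -1.24 to -0.57). Gzmb, the protease granzyme B, had 18, 10, 109 and 34 UMIs in 34 cells, and 58.7% of those in the anti-PD-1 library came from 1 cell. Gzma had 127 UMIs in the anti-PD-1 library, 88.2% of them from 1 cell, and all 97 Gzmc UMIs of the combination library came from 1 cell. Cells with at least 3 granzyme or perforin UMIs numbered 4, 5, 13 and 9, of which 0, 2, 7 and 5 were CD8 T cells.

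Over all members, co-stimulatory and regulatory T cell genes had ratios above 0 in both IACS-70654 comparisons, though most did not pass the fold. Of the 12 listed genes, 8 had enough UMIs in IACS-70654 over vehicle, with 1 higher past the fold, none lower and a median of 0.59, and 9 in combination over anti-PD-1, with 3 higher, none lower and a median of 0.49. Of all genes, 8.84% and 4.96% were higher past the fold, so the count in the first comparison was near that of all genes. Ctla4, the inhibitory receptor that competes with CD28 (chr1:60887000-60915832), stood at 172, 326, 291 and 409 CPM, with ratios of 0.92 (95% interval 0.44 to 1.42) and 0.49 (95% interval 0.19 to 0.79). Tnfrsf9, which encodes 4-1BB, stood at 68.3, 146, 81.4 and 209 CPM, with ratios of 1.09 (95% interval 0.33 to 1.92) and 1.36 (95% interval 0.84 to 1.90). Tnfrsf4, which encodes OX40, stood at 104, 173, 64.0 and 193 CPM, with ratios of 0.74 (95% interval 0.10 to 1.41) and 1.59 (95% interval 1.02 to 2.20).

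These ratios depended on which cells counted as T cells. Without the C1q limit the list's median in IACS-70654 over vehicle was 0.045, Ctla4 stood at a ratio of 0.10 and Tnfrsf4 at -0.002. Without cells meeting the neutrophil or tumor cell rule the median was 1.15. In combination over anti-PD-1 the list's median stayed between 0.26 and 0.79 under 12 settings. After thinning, Ctla4 was detected in 13.0%, 32.5%, 25% and 32.0% of cells and Tnfrsf4 in 8.70%, 18.8%, 3.70% and 16.4%, against 0.2% to 0.8% and 0% to 0.2% of macrophage-rule cells.

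Foxp3 (chrX:7573644-7595245) had 7, 21, 15 and 28 UMIs, or 25.2, 48.6, 29.1 and 48.3 CPM. Of the 48 Foxp3+ T cells, 43 also had Ctla4, 41 Ikzf2 (the factor Helios), 36 Tnfrsf4, 11 Cd4 and 4 Cd8a or Cd8b1. Within Foxp3+ T cells the summed regulatory list was 6519, 5147, 3938 and 6950.2 CPM, which did not separate the libraries with IACS-70654 from those without. Across all members Ikzf2 stood at 169, 215, 273 and 355 CPM and Tnfrsf18, which encodes GITR, at 122, 143, 81.4 and 199.9 CPM.

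Genes of tissue residence and activation were led by Rgs1, a regulator of chemokine receptor signalling (chr1:144242296-144249242), at 255, 499.6, 312 and 827 CPM, with ratios of 0.97 (95% interval 0.58 to 1.38) and 1.41 (95% interval 1.15 to 1.67). It was detected in 18.8%, 46.2%, 25.9% and 53.3% of thinned T and NK cells, but also in 46.8% to 50.4% of thinned macrophage-rule cells. The part of macrophage RNA in its level was not tested. Cxcr6, a chemokine receptor of tissue-resident T cells that macrophage-rule cells nearly lacked, stood at 46.7, 76.3, 54.3 and 112 CPM. The effector and residence list had medians of 0.30 over 7 members and 0.31 over 12. With the combination over anti-PD-1, 3 of 12 members were higher past the fold (Cxcr6, Rgs1 and Prdm1, which encodes BLIMP-1) and none was lower, where 4.96% of all genes were higher and 5.34% lower.

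Gamma-delta and type 17 genes were highest in the combination library. Il17a (chr1:20730905-20734496) had 51, 151, 81 and 446 UMIs, or 183, 349, 157 and 769 CPM, in 6, 10, 7 and 25 cells. The ratio was 2.29 (95% interval 1.95 to 2.65) in combination over anti-PD-1 and 1.14 (95% interval 0.87 to 1.41) in combination over IACS-70654. In IACS-70654 over vehicle it was 0.93 (95% interval 0.46 to 1.42), where 1 cell held 62.7% of the vehicle UMIs and 1 cell 41.7% of those with IACS-70654. That ratio was 0.14 without the C1q limit and 1.90 without cells meeting the neutrophil or tumor cell rule. UMIs within 1 cell are not independent, so the intervals of levels and ratios are too narrow, for this gene and for others.

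Cells with at least 2 Il17a UMIs numbered 4, 9, 5 and 24. Of these 42 cells, 33 had a UMI of Trdc or of Tcrg-C1, Tcrg-C2 or Tcrg-C4 (the gamma chain constant regions), 1 of Cd8a or Cd8b1, 1 of Foxp3 and 0 of Cd4. Of the 38 T cells with Trdc, 27 had Il17a: 2 of 6, 6 of 9, 4 of 6 and 15 of 17. Trdc itself (chr14:54142851-54148868) stood at 50.3, 55.5, 54.3 and 109 CPM. Thinned to 1000 UMIs, Il17a was detected in 4.35%, 10%, 3.70% and 18.0% of cells, against 0% to 0.4% of macrophage-rule cells.

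Across the gamma-delta and type 17 list of 15 genes, 6 of 8 members with enough UMIs were higher past the fold in combination over anti-PD-1 (Trdc, Tcrg-C1, Il17a, Il17f, Il23r and Blk) and none lower, against 4.96% and 5.34% of all genes, with a median of 1.24. In combination over IACS-70654, 5 of 8 were higher, with a median of 1.06, where 4.54% of all 6523 genes were higher and 3.25% lower past the fold. In IACS-70654 over vehicle only 4 members had enough UMIs, none past the fold, with a median of 0.20.

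Of genes that type 2 innate lymphoid cells share with other lymphocytes, Rora, Hilpda and Areg had an order similar to that of Il17a. Gata3 and Il1rl1 did not. Rora (chr9:68653786-69388246), a factor of type 17 cells and innate lymphoid cells, stood at 226, 321, 186 and 448 CPM, with ratios of 0.51 (95% interval 0.067 to 0.96) and 1.27 (95% interval 0.92 to 1.62). Hilpda, a hypoxia-induced lipid droplet protein, stood at 82.7, 167, 65.9 and 229 CPM, with ratios of 1.01 (95% interval 0.32 to 1.76) and 1.80 (95% interval 1.25 to 2.39), and Areg, the growth factor amphiregulin, had 21, 36, 15 and 80 UMIs. Of the defining genes of these cells, Il13 was at 0 and Il1rl1 had 10, 2, 2 and 6 UMIs, and Gata3, which T cells also use, had 9, 9, 18 and 32. The list of 10 had 3 members with enough UMIs in the first comparison (median 0.51) and 4 in the second (median 1.53). Without the C1q limit the first median was -0.35.

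H2-D1, H2-K1 and B2m, which encode MHC class I chains, had higher levels in both libraries with IACS-70654, by less than the fold. H2-D1 (chr17:35262730-35267499) stood at 2663, 4149, 2507 and 4099 CPM, with ratios of 0.64 (95% interval 0.52 to 0.77) and 0.71 (95% interval 0.61 to 0.81). H2-K1 (chr17:33996017-34000347) stood at 1186, 1855, 1222 and 1998 CPM, with ratios of 0.65 (95% interval 0.46 to 0.83) and 0.71 (95% interval 0.57 to 0.85), and B2m (chr2:122147686-122153083), the light chain of every class I molecule, at 1671, 2190.3, 1714 and 2772 CPM, with ratios of 0.39 (95% interval 0.23 to 0.55) and 0.69 (95% interval 0.57 to 0.81). Over all members, for all 3 both libraries with IACS-70654 were above both without it. Levels of these genes within T cell subsets are not given here. H2-D1 and H2-K1 are near-identical in parts, and reads may be divided between them and other class I genes.

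Of 18 class I and peptide-loading genes, 4 were higher past the fold in IACS-70654 over vehicle (H2-Q4, Tap1, Tap2 and Psmb10) and 0 in combination over anti-PD-1, with medians of 0.68 and 0.34. Of all genes 8.84% and 4.96% were higher, so the list's count lay above that share in the first comparison and below it in the second. None was lower past the fold in either. The summed level had ratios of 0.59 (95% interval 0.51 to 0.66) and 0.57 (95% interval 0.52 to 0.63) in T and NK cells. In the remaining kept cells of the same libraries, most of them macrophages with IACS-70654, it had ratios of 0.79 and 1.08, and the part of their RNA in the T and NK values was not tested. With C1q under 5 UMIs and cells with neutrophil, tumor or collagen genes left out, the medians were 0.30 and 0.14. The ratio of H2-D1 ran from 0.36 to 0.78 and from 0.53 to 0.83 over 14 settings, and that of B2m from 0.28 to 0.53 and from 0.41 to 0.74.

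Interferon-response genes had another order, with vehicle below the other 3 libraries. Isg15, a ubiquitin-like protein induced by interferon, stood at 79.1, 331, 319.9 and 372 CPM, with ratios of 2.06 (95% interval 1.41 to 2.78) for IACS-70654 over vehicle, 2.02 (95% interval 1.37 to 2.73) for anti-PD-1 over vehicle and 0.22 (95% interval -0.080 to 0.52) for combination over anti-PD-1. In the IACS-70654 library 51.0% of its UMIs came from 1 cell, and with equal weight per cell the ratio of IACS-70654 over vehicle was 0.54. Over 14 settings the Isg15 ratio ran from 0.54 to 2.22 for IACS-70654 over vehicle, from 0.70 to 2.57 for anti-PD-1 over vehicle and from -0.98 to 1.14 for combination over anti-PD-1. Ifi27l2a stood at 474, 1008, 1001 and 945 CPM and Bst2, which tethers budding viruses, at 179.7, 523, 337 and 533 CPM. Of 27 listed genes with enough UMIs, 12 were higher past the fold in IACS-70654 over vehicle, against 8.84% of all genes, and none lower (median 0.88), and 10 of 27 were higher in anti-PD-1 over vehicle and none lower (median 0.74), where 6.86% of all 5775 genes were higher and 4.17% lower.

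Added to anti-PD-1, IACS-70654 went with little difference in the interferon list. In combination over anti-PD-1, 2 of 30 genes were higher, near the 4.96% of all genes, and none lower (median 0.19), and that median turned negative when cells with neutrophil or tumor genes were left out (-0.11) or cells were thinned (-0.35). Both comparisons against vehicle share the vehicle library, which holds 74 cells and the fewest UMIs. The guanylate binding protein list had medians of 0.80 and 0.30 in the comparisons of IACS-70654.

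The promoters of Isg15 and Ifit3, of the interferon list, and of B2m, of the class I list, are shown because genes of these lists had higher ratios than the naive and memory list. Each is the 250 bases before the gene's start in RefSeq, GRCm38.p6, written 5′ to 3′ on the strand of the gene in lower case.
Isg15, chr4:156200819-156201068, minus strand: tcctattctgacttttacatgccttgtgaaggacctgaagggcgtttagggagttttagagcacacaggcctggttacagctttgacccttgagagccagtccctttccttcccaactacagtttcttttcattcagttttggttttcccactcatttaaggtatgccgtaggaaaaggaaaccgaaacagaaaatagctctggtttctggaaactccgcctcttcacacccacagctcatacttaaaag
Ifit3, chr19:34583279-34583528, plus strand: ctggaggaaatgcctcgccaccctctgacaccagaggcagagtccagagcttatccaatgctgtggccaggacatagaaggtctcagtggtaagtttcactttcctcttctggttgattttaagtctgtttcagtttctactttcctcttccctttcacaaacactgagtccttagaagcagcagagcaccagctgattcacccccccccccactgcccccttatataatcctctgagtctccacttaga
B2m, chr2:122147437-122147686, plus strand: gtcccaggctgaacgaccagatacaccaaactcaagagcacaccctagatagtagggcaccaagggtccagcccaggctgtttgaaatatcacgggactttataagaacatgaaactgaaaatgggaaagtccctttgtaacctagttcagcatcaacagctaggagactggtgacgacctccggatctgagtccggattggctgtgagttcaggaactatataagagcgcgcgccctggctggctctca

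Ifit3, a gene of the interferon list, stood at 18.0, 127, 60.1 and 107 CPM. B2m was higher in both libraries with IACS-70654, whereas Isg15 was lower in vehicle than in each of the other 3.

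**Figure D5:**
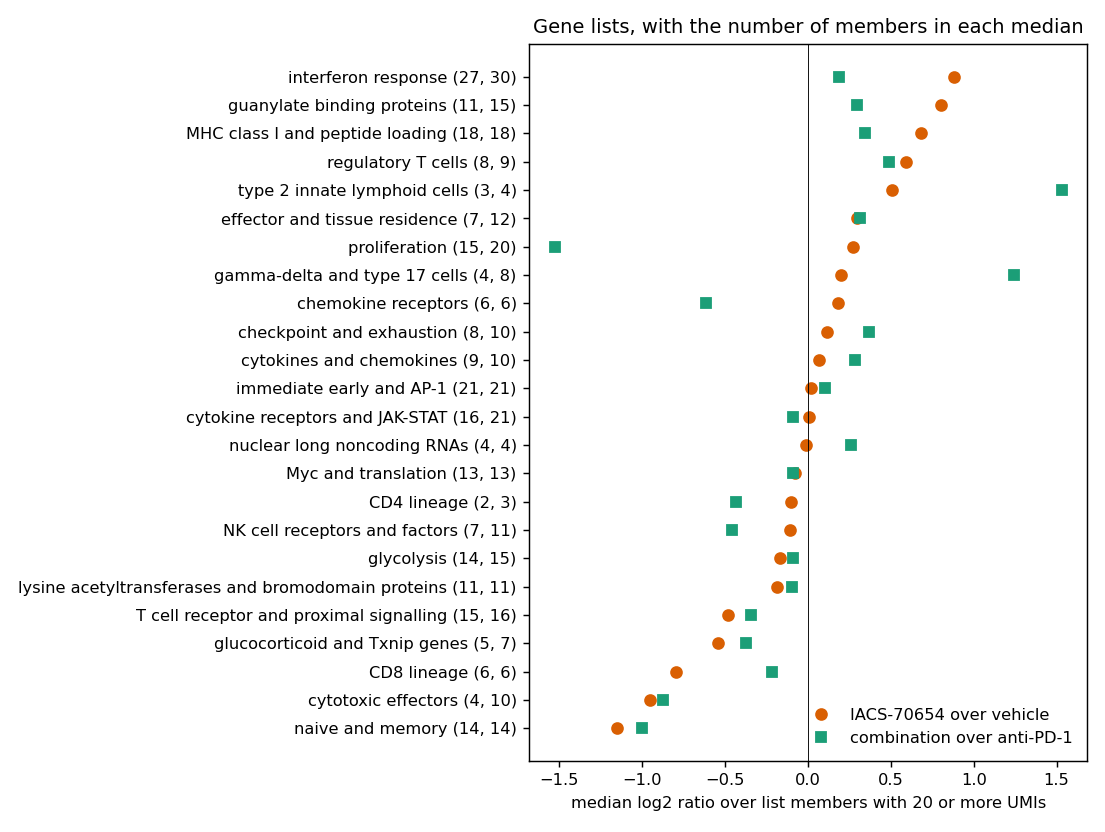
Median log2 ratio of gene lists, without the rule genes and the markers of other cell types, over its members with at least 20 UMIs, for IACS-70654 over vehicle (circles) and combination over anti-PD-1 (squares), with the number of members in each median in brackets. Of the lists plotted, naive and memory lies lowest in the first comparison (-1.15), and proliferation lies lowest in the second (-1.53).

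Proliferation genes, which cells express while copying and dividing their genomes, had the lowest summed level with the combination. The summed level of the list was 2408, 3014, 3178 and 1691 CPM, and the intervals of the IACS-70654 and anti-PD-1 libraries overlapped. Mki67 had 2, 16, 60 and 12 UMIs, and Top2a, which untangles replicated DNA, had 14, 34, 62 and 28. In combination over anti-PD-1, 16 of 20 listed genes were lower past the fold and 0 higher (median -1.53), against 5.34% and 4.96% of all genes, and in anti-PD-1 over vehicle 9 of 20 were higher and 1 lower (median 0.85), against 6.86% and 4.17%. These UMIs came from few cells: 10 cells held Mki67 in the anti-PD-1 library, and 3 of them held 60% of its UMIs. In IACS-70654 over vehicle the median was 0.27, but -0.65 in T cells alone and -0.81 in cells with at least 5 lymphocyte UMIs. In T cells alone the median of combination over anti-PD-1 was -0.99.

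Checkpoint genes had a median of 0.11 over 8 genes in IACS-70654 over vehicle. None was past the fold, a count near that of all genes, of which 8.84% were higher and 6.88% lower. Between combination and anti-PD-1, 3 of 10 were higher past the fold (Pdcd1, Havcr2 and Nt5e) and none lower, where 4.96% of all genes were higher and 5.34% lower, with a median of 0.37. Pdcd1, which encodes PD-1, the target of the antibody, stood at 39.5, 43.9, 38.8 and 84.5 CPM, with a ratio of 1.12 (95% interval 0.35 to 1.95). Its transcript does not report the antibody's binding.

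Transcripts of the drug's targets had ratios whose intervals included 0 in both comparisons. Crebbp, which encodes CBP, stood at 187, 139, 188 and 176 CPM, with ratios of -0.43 (95% interval -0.99 to 0.14) and -0.10 (95% interval -0.51 to 0.32), and Ep300, which encodes P300, at 43.1, 57.8, 64.0 and 77.6 CPM, with ratios of 0.42 (95% interval -0.62 to 1.55) and 0.28 (95% interval -0.40 to 0.97). The list of 13 acetyltransferases and bromodomain proteins had medians of -0.19 and -0.10 over 11 genes. Medians within 0.2 of 0 were also found for immediate early and AP-1 genes (0.019 and 0.10), Myc and translation genes (-0.076 and -0.088), glycolysis (-0.17 and -0.092) and cytokine receptors and JAK-STAT genes (0.0070 and -0.093). The NK receptor list, over 7 and 11 genes, had medians of -0.11 and -0.46, and Txk, at 129, 34.7, 169 and 34.5 CPM, was lower in both libraries with IACS-70654.

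The comparisons of anti-PD-1, over vehicle and of the combination over IACS-70654, shared fewer genes past the fold. Of 5418 genes, 0.461% were higher past the fold in both and 0.240% lower in both, while 0.406% and 0.295% had opposite signs, and the ratios had a Pearson r of 0.10 across 1236 genes. Col1a1, with 1 UMI in each library with IACS-70654, is not among the 1236 but is among the 1154 genes of the IACS-70654 comparisons. Both values of r are therefore over different genes. By the same ranking the first genes higher in both were Rasd1, Cldn4, Gzmb, Ctsk and Lax1, and the first lower in both were Timp1, Timp3, Col8a1, Prrx1 and Slc4a4. With the 6 collagen-bearing cells left out, 6 genes were lower in both, none of them among these 5, and 19 were higher in both, of which 9 were among the 19 with those cells. Lax1, an adaptor that dampens lymphocyte receptor signalling, had 5, 8, 24 and 26 UMIs. Rasd1 had 28 UMIs in the anti-PD-1 library, 75.0% from 1 cell, and Timp1 had 491 in the IACS-70654 library, 92.9% from 1 cell. The naive and memory list had medians of -0.48 and 0.26 in these comparisons, with no gene past the fold.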

How the data were processed

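Tumor cells were profiled with the 10x Genomics 3′ kit with CellPlex tags. The authors made the deposited UMI counts per gene and cell with Cell Ranger (version 7.1.0 for tumors and 7.2.0 for marrow per the file headers; mm10 per the submitters' processing notes), and each tumor treatment was 1 library. Tumor libraries held 15590289 to 43594797 UMIs. The paper adjusted the tag assignment confidence of the tumor data so that more cells were included. The main tag of a library held a median of 73.4% (vehicle) to 84.3% (combination) of a member's tag counts. Cells assigned to the wrong treatment were not looked for. The members and gene lists were chosen with earlier results of these data known.

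Here the counts were used as deposited. Cells were filtered and chosen as the report states, and UMIs were summed per library in Python 3.11.15 with pandas 2.3.3 and numpy 2.4.6, and intervals came from scipy 1.17.1. Levels are CPM with exact Poisson 95% intervals, ratios have exact conditional binomial intervals and shares Clopper-Pearson intervals. The intervals of levels and ratios take UMIs as independent, which those within 1 cell are not, so these intervals are too narrow. Where a library had 0 UMIs of a gene, the ratio was set against 3 UMIs as a bound. Past the fold means at least 20 UMIs in both libraries together and a log2 ratio of at least 1 in size. Cells were thinned to 1000 UMIs without replacement.

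Named genes were the 2 to 6 listed genes per list with most UMIs (at least 10), and the first 10 (anti-PD-1, 5) genes per direction with a log2 ratio of at least 1 in size in both comparisons, among genes with at least 40 UMIs and a level no lower than in other kept cells. Genes described by role beyond this rule, and those ranked without collagen-bearing cells, were chosen after their values were seen. Neutrophil-rule cells had at least 1% of UMIs in S100a8, S100a9, Retnlg, G0s2, Csf3r and Cxcr2, and tumor-rule cells at least 0.2% in Krt8, Krt18, Krt14, Krt5, Krt19 and Epcam. Scrublet (scanpy 1.11.5) marked 23 of 13830 kept cells and so did not work as a doublet caller, and doublets were otherwise limited by the C1q and Cd79 limits. The ratio code was tested on simulated data. Marrow libraries gave values only, and the other marrow libraries were not used here. Some genes that the naming rule selects are not reported here.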

Additional observations from a re-analysis of the deposited data

Results flagged for a closer look

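Among listed and named genes, 5 were past the fold in opposite directions under the same treatment without and with the other agent. For IACS-70654 it was 1, of 284 such genes with at least 20 UMIs in both of its comparisons. For anti-PD-1 it was 4, and the number of such genes in its comparisons was not counted. Of all genes, 0.209% and 0.152% were opposite in the IACS-70654 comparisons, and 0.406% and 0.295% in those of anti-PD-1. The count for IACS-70654 was thus near the share of all genes. The differences in these 5 genes were not tested, since each treatment is 1 library. G0s2, a lipolysis inhibitor and a gene of the neutrophil marker list, had a log2 ratio of 1.95 in IACS-70654 over vehicle and -1.74 in combination over anti-PD-1. For anti-PD-1, without and with IACS-70654, the log2 ratios were 2.81 and -1.10 for the mitotic gene Cenpf, 1.36 and -1.24 for Stmn1, which encodes a microtubule regulator of dividing cells, 1.06 and -1.29 for the chemokine gene Cxcl10, and 1.13 and -1.42 for the chemokine receptor gene Ccr2. G0s2 had 6, 36, 211 and 71 UMIs in the vehicle, IACS-70654, anti-PD-1 and combination libraries, Cenpf 2, 16, 26 and 10, Stmn1 13, 30, 62 and 17, Cxcl10 8, 71, 31 and 39 and Ccr2 18, 46, 73 and 23.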

How the results depend on the processing

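No paired analysis was possible because each treatment is 1 library without a replicate number. Leaving out a library removes the comparisons that use it and leaves the others as they are. Under the alternatives, 355 of 384 medians of gene lists and 1177 of 1286 log2 ratios of named genes stayed within the interval or limit of the reported value. A change of sign was looked for only where that interval or limit held a single sign, so others among these may have changed sign. The 1286 include the setting of at least 50 UMIs, which could not change these ratios. Medians of the naive and memory list in both IACS-70654 comparisons stayed within their limits and negative under every alternative run. The settings without a C1q limit, without collagen-bearing cells and with both limits combined were chosen after the data were seen. The causes of the moves below were not tested.

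The share of T and NK cells moved to 2.48% (vehicle), 1.14% (IACS-70654), 3.85% (anti-PD-1), 1.84% (combination) with at least 5 lymphocyte UMIs, to 2.98% (IACS-70654), 3.12% (combination) without a C1q limit, to 2.17% (IACS-70654) with at least 2 lymphocyte UMIs, to 6.80% (anti-PD-1) outside the neutrophil rule, to 5.83% (vehicle), 9.05% (anti-PD-1), 2.98% (combination) outside the neutrophil and tumor cell rules, and to 1.36% (IACS-70654), 1.81% (combination) with 1 lymphocyte UMI after thinning to 2000 UMIs.

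Thinned to 1000 UMIs, subset shares, which rest on fewer UMIs per cell, moved to: CD8 T cells 11.6% (vehicle), 3.75% (IACS-70654), 13.9% (anti-PD-1), 6.56% (combination), CD4 T cells 5% (IACS-70654), 2.78% (anti-PD-1), 2.46% (combination), Foxp3+ T cells 0% (vehicle), 5% (IACS-70654), 2.78% (anti-PD-1), 4.10% (combination), Trdc+ T cells 1.45% (vehicle), 5% (IACS-70654), 5.74% (combination). T cells were 69.1% of members after thinning and 84.4% by at least 2 Cd3e and Cd3g UMIs.

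Counts of genes past the fold were 473 higher and 368 lower for IACS-70654 over vehicle, 342 and 368 for combination over anti-PD-1, 396 and 241 for anti-PD-1 over vehicle, and 296 and 212 for combination over IACS-70654. With equal weight per cell they moved to 735 higher (IACS-70654 over vehicle), 688 higher and 560 lower (combination over anti-PD-1), 605 higher (anti-PD-1 over vehicle), 461 higher and 382 lower (combination over IACS-70654). After thinning they moved to 113 higher and 53 lower (IACS-70654 over vehicle), 181 higher and 116 lower (combination over anti-PD-1), 111 higher and 41 lower (anti-PD-1 over vehicle), 92 higher and 76 lower (combination over IACS-70654). With at least 50 UMIs they moved to 157 higher and 111 lower (IACS-70654 over vehicle), 104 higher and 110 lower (combination over anti-PD-1), 97 higher and 56 lower (anti-PD-1 over vehicle), 67 higher and 51 lower (combination over IACS-70654). With at least 1 UMI and 0.5 UMIs added they moved to 1804 higher and 2755 lower (IACS-70654 over vehicle), 2335 higher and 2695 lower (combination over anti-PD-1), 1868 higher and 2063 lower (anti-PD-1 over vehicle), 2626 higher and 1937 lower (combination over IACS-70654). Without neutrophil-rule and tumor-rule cells they moved to 298 higher (IACS-70654 over vehicle). Without collagen-bearing cells they moved to 153 lower (anti-PD-1 over vehicle). With C1q under 5 UMIs and the neutrophil, tumor and collagen limits together they moved to 294 higher and 186 lower (IACS-70654 over vehicle), 112 lower (anti-PD-1 over vehicle).

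Of the list medians, these moved: the proliferation median in IACS-70654 over vehicle from 0.27 to -0.81 (at least 5 lymphocyte UMIs), -0.65 (T cells alone), the regulatory T cells median in IACS-70654 over vehicle from 0.59 to 1.15 (neutrophil and tumor rule cells out), 0.045 (no C1q limit), the T cell receptor and proximal signalling median in IACS-70654 over vehicle from -0.48 to -0.011 (neutrophil and tumor rule cells out), -0.72 (no C1q limit), -0.72 (collagen-bearing cells out), the interferon response median in combination over anti-PD-1 from 0.19 to -0.11 (neutrophil and tumor rule cells out), -0.23 (all limits together), -0.35 (thinned), the type 2 innate lymphoid cells median in IACS-70654 over vehicle from 0.51 to -0.35 (no C1q limit), the MHC class I and peptide loading median in IACS-70654 over vehicle from 0.68 to 0.30 (all limits together), the gamma-delta and type 17 cells median in IACS-70654 over vehicle from 0.20 to 1.04 (all limits together), the proliferation median in combination over anti-PD-1 from -1.53 to -0.97 (thinned), -0.99 (T cells alone). Reversed among other values were the proliferation median in combination over IACS-70654 (from -1.01 to 0.085) and Gzmb in IACS-70654 over vehicle (from -1.48 to 0.20 over 15 UMIs), both with at least 5 lymphocyte UMIs, and Tnfrsf4 in IACS-70654 over vehicle without a C1q limit (from 0.74 to -0.002).

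A UMI in the 4 libraries was worth 3.59, 2.31, 1.94 and 1.72 CPM, so genes under about 3 UMIs (10.8, 6.94, 5.82 and 5.17 CPM) could not be told from 0. With 74 to 124 cells per library, 1 cell could hold most UMIs of a gene, as for Gzma and Gzmc.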

Other observations

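B cells, by at least 3 UMIs of Cd79a and Cd79b and under 20 of the C1q genes, were 29 of 1974 kept cells in the vehicle library (1.47%), 2 of 4739 with IACS-70654 (0.0422%), 45 of 2053 with anti-PD-1 (2.19%) and 2 of 5064 with the combination (0.0395%). Without the C1q limit the counts were 35, 15, 46 and 19 cells, so the limit removed most such cells in both libraries with IACS-70654 and few in the others. No test was possible.

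In CD45+ bone marrow of the same study, 298 cells of 6 libraries met the same rule, 21 to 111 per library. There were 2 libraries each from control mice without tumors, from mice with tumors on vehicle and from mice with tumors on IACS-70654, sorted and run apart, so its levels are given side by side only. Lef1 ranged over 369 to 418, 199 to 270.1 and 147 to 199 CPM in the control, vehicle and IACS-70654 marrow, Satb1 over 437 to 603, 383 to 559 and 336 to 577, and Bach2 over 295 to 344, 122 to 209.6 and 263 to 267. B2m ranged over 1561 to 1768, 1697 to 1833 and 1909 to 2264 CPM, H2-K1 over 980.2 to 1059, 1022 to 1061 and 1426 to 1482 and H2-D1 over 1387 to 1606, 1505 to 1564 and 1961 to 2155. Ctla4 ranged over 27.8 to 64.8, 35.8 to 64.3 and 62.9 to 83.4 CPM. Ncr1 ranged over 489 to 491, 231 to 271 and 276 to 388 CPM, against 28.7, 18.5, 52.4 and 5.17 CPM in the 4 tumor libraries.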
